A study of Homo sapiens with 13 samples.

Results

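Glycolysis splits glucose into pyruvate in the cytosol and yields ATP without oxygen. Hexokinases (HK1, HK2) trap glucose by phosphorylation, phosphofructokinase (PFKL, PFKM, PFKP) commits it to the pathway, aldolase (ALDOA, ALDOC) cleaves the hexose, phosphoglycerate mutase (PGAM1) moves the phosphate of 3-phosphoglycerate, pyruvate kinase (PKM2) makes pyruvate and ATP, and lactate dehydrogenase (LDHA) reduces pyruvate to lactate while it returns NADH to NAD+, which an earlier step of the pathway needs. Several steps have isozymes from separate genes, and cells differ in which of them they use. The enzymes were followed in CCRF-CEM, a human leukemia line of the T lineage, in which FK866 blocks NAMPT, the enzyme that recycles nicotinamide into NAD+.

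The 10 genes HK1, HK2, PFKL, PFKM, PFKP, ALDOA, ALDOC, PGAM1, PKM2 and LDHA were chosen by name, and all 14 probes that carry these gene names and are not controls were taken, of 34127 probes of 25940 gene names on the array. PKM2 is the name used in the array design for the gene now called PKM. HK2, PFKP, PGAM1 and LDHA had 2 probes each and the other 6 genes had 1. All 14 were among the 22754 probes tested, those that rose well above background on all arrays of some group.

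RNA of 4 groups was measured on 13 1-colour Agilent arrays, with 3 biological replicates of parental cells (CEM PA) given DMSO, called mock, 2 of CEM PA given 5 nM FK866, 4 of mock-treated resistant cells (CEM RES) and 4 of CEM RES given 5 nM FK866, each for 48 h. CEM RES is a population selected from CCRF-CEM by stepwise increase of FK866 until it withstood 100 nM, and the study kept it under the drug, so that mock-treated CEM RES cells had met FK866 before. Each line was a single line, so a difference between the lines is that of 1 selected population against its parent. All CEM RES arrays were scanned in 1 session on 2 slides and the CEM PA arrays in 2 other sessions, so line and scan session cannot be told apart. Of the 9 T lineage markers, which included CD3D and LCK, 9 were well above background on all 13 arrays, while 2 of 4 B cell, 2 of 4 measured myeloid, 2 of 3 erythroid and 2 of 3 epithelial markers were so, with B cell CD22 and epithelial EPCAM on 0 arrays. In RNA of whole cultures, a lower transcript level per cell and fewer cells that make the transcript cannot be told apart.

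Every value below is a quantile-normalized log2 signal, or a difference of such signals, on which 1 unit is a doubling. An adjusted p is from limma's moderated test, two-sided, with Benjamini-Hochberg adjustment over all 22754 probes, and a probe was called when it was under 0.05. Signals of different probes are not compared, since each probe binds with its own strength.

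The probes matter because several do not read a single transcript. The PKM2 probe at chr15:72491640-72491699 (hg19, minus strand) lists 4 RefSeq transcripts of the gene, and both PFKP probes (chr10:3178781-3178840 and chr10:3177970-3178029) list the same 2. The array files give positions and transcripts but do not say whether a probe lies in a coding exon or a UTR. Shown here are the probes of LDHA and PGAM1, since each gene has a probe that may bind another locus. The pair of LDHA probes are A_23_P47565 at chr11:18428789-18428848, in the LDHA gene, and A_32_P44568, which the array design placed on chr9:14921817-14921876 (minus strand) although the transcripts it lists are those of LDHA. RefSeq names 6 LDHA pseudogenes, of which LDHAP4 is on chromosome 9. The PGAM1 probe A_33_P3268334 at chr10:99190177-99190236 also lists a transcript of PGAM4, whereas A_32_P45738 at chr10:99192856-99192915 lists only that of PGAM1 in RefSeq, and 13 pseudogenes carry the PGAM1 name. The sequences are printed from the array files in lower case, the last one by its first 30 bases.
LDHA A_23_P47565: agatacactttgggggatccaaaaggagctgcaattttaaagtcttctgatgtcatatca
LDHA A_32_P44568: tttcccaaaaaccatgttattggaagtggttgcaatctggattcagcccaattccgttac
PGAM1 A_33_P3268334: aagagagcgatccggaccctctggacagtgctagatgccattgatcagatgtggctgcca
PGAM1 A_32_P45738: tagtatatataatacaaaacaataaccctt

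Without drug, the enzymes did not move together between the lines. ALDOC, HK2 by its brighter probe, PFKM, PFKL and ALDOA were lower in the resistant line, PGAM1 was higher by 1 of its 2 probes, and HK1, PFKP, PKM2 and LDHA did not pass the test. Of the 14 probes, 7 were called, near the 47.6% of all probes called in this comparison, so the number of called probes was not particular to the pathway. By direction, 6 were lower (42.9%, against 22.7% of all probes) and 1 higher (against 24.9%). The median difference was -0.39 over the 14 probes and 0.04 over all probes. One of the lower probes, the dimmer of HK2, was kept only through the CEM PA groups, and without it 6 of 13 were called, 5 lower and 1 higher. By the study's double threshold, 6 of the 14 passed, against 35.6% of all probes. The groups did not overlap for 8 of the 14 probes, which held for 48.8% of all probes.

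**Figure D1:**
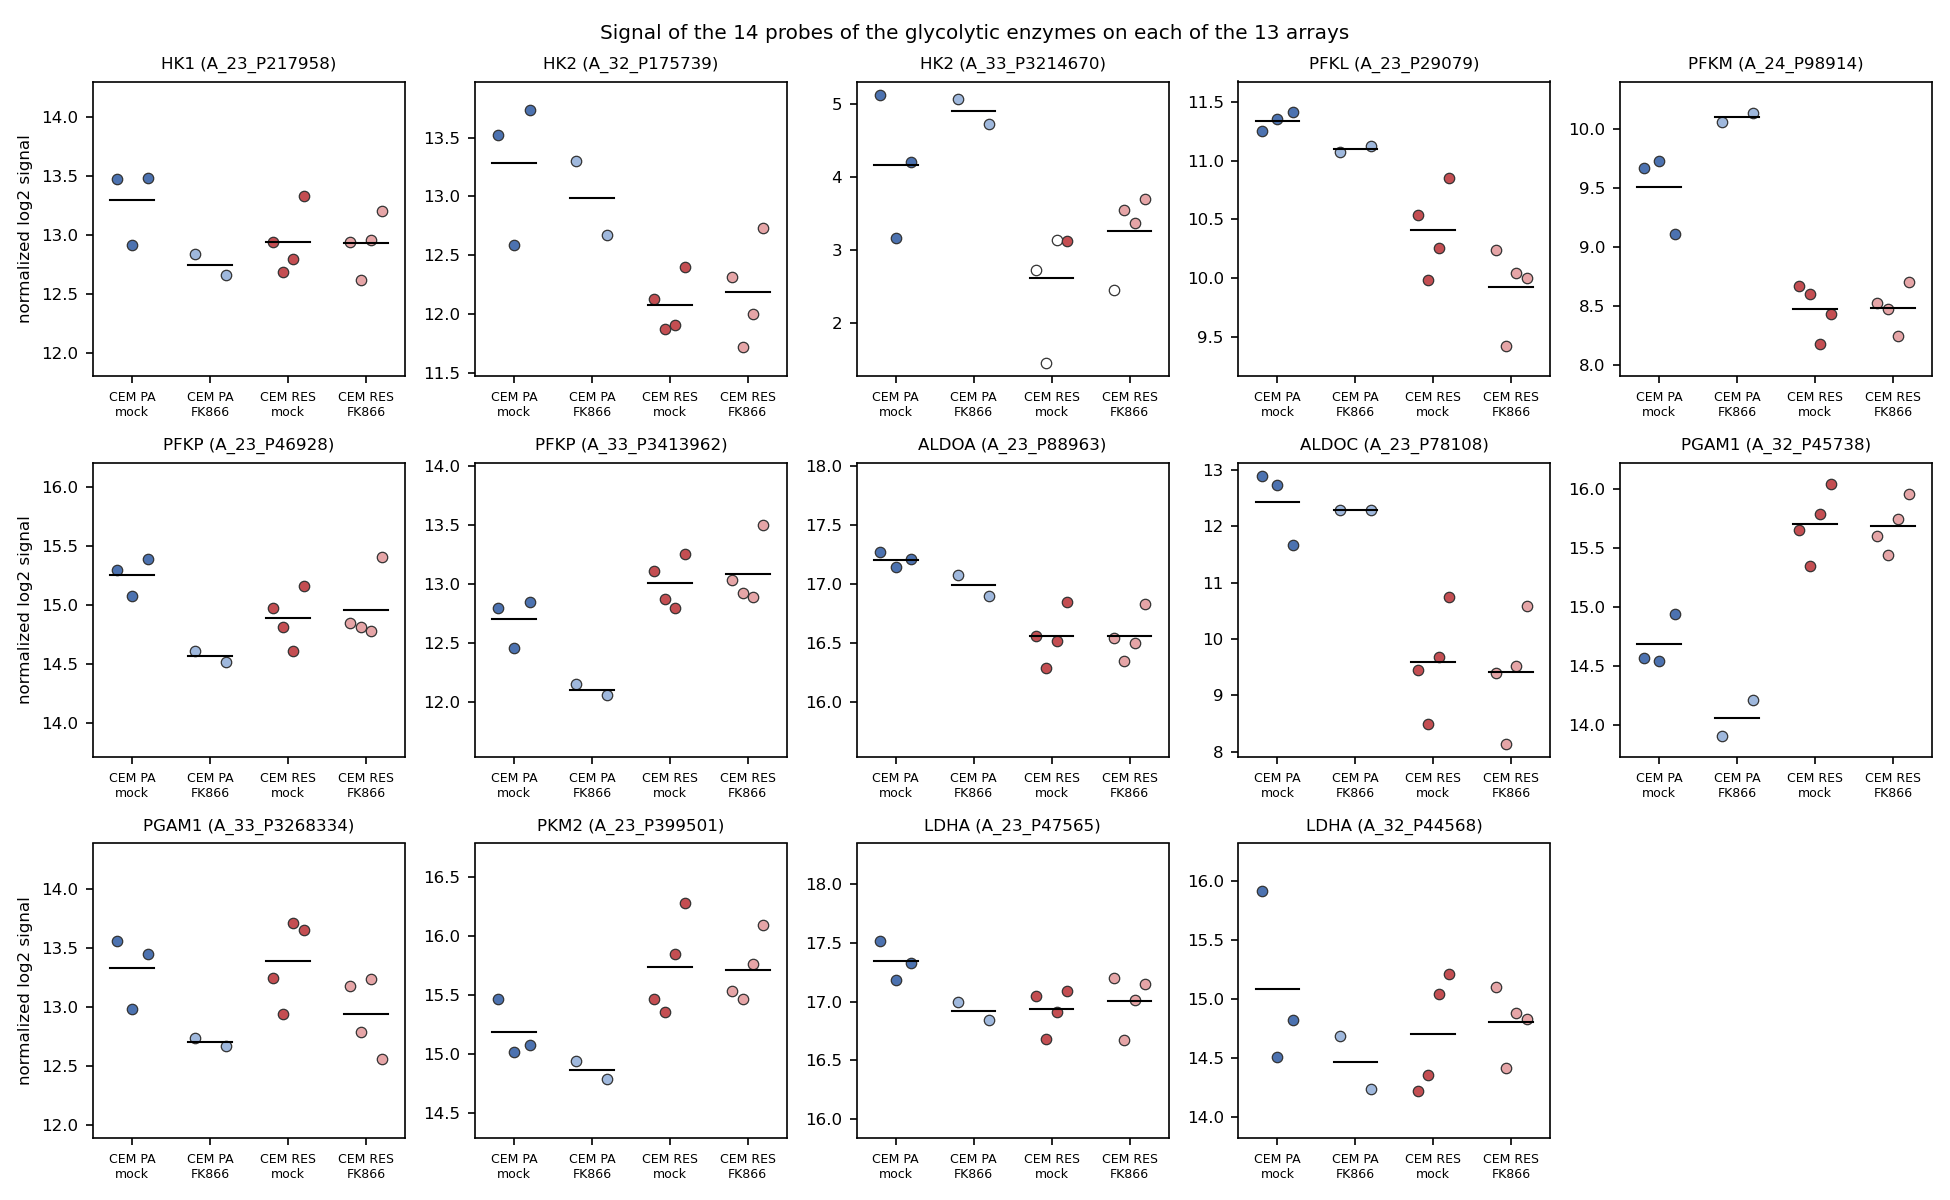
Normalized log2 signal (y axis, each panel spanning at least 2.5 units) of each of the 14 probes on each of the 13 arrays, by group; a point is an array, a black bar the group mean, and a white point an array on which the probe was not well above background. ALDOC and PFKM separate the lines at every array, PGAM1 A_32_P45738 does so in the opposite direction, and the LDHA A_23_P47565 points lie between 16.67 and 17.51 in all groups.

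The difference in signal was largest for the aldolase that is best known from brain. ALDOC (chr17:26900423-26900482, minus strand) had signals of 12.89, 12.73 and 11.66 in mock-treated CEM PA and of 9.45, 8.50, 9.68 and 10.75 in mock-treated CEM RES. Every CEM RES array was below every CEM PA array, although the CEM RES replicates ranged over 2.25 units, the widest spread of the 14 probes in that group. The difference was -2.83 ± 0.56 (SE of the fit), 7.13-fold lower, with limma adjusted p = 0.00149.

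ALDOA, the aldolase of muscle and of most proliferating cells, was measured at chr16:30081324-30081470. It read 17.27, 17.14 and 17.21 in mock-treated CEM PA against 16.56, 16.29, 16.52 and 16.85 in CEM RES, again without overlap. The difference was -0.65 ± 0.16, 1.57-fold lower (adjusted p = 0.00543). It depended on the scaling: with a scaling of arrays to the 75th percentile, which moved the median difference of all probes from 0.04 to 0.17, it was -0.28 with adjusted p = 0.235.

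HK2, the inducible hexokinase of many tumour cells, was lower in CEM RES by its brighter probe (A_32_P175739, chr2:75120331-75120390). It read 13.52, 12.59 and 13.73 in mock-treated CEM PA against 12.13, 11.88, 11.91 and 12.40 in CEM RES. The second CEM PA replicate was the nearest to the CEM RES arrays but still above them all. The difference was -1.20 ± 0.30, 2.3-fold lower (adjusted p = 0.0059).

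The dim HK2 probe (A_33_P3214670, chr2:75118359-75118418) read 5.13, 3.17 and 4.21 in CEM PA against 2.73, 1.45, 3.14 and 3.12 in CEM RES, where it was well above background on 1 of 4 arrays. It was among the tested probes only because it was so on 3 of 3 mock and 2 of 2 FK866 arrays of CEM PA, so its difference is given as a description and adds nothing to that of the brighter probe. The difference was -1.56 ± 0.49 (adjusted p = 0.0198). It was no longer called without mock CEM PA replicate 1 (-1.08, adjusted p = 0.1) or replicate 3 (-1.54, adjusted p = 0.053). With the normexp background correction, which pulls dim signals together, it shrank to -0.25 (adjusted p = 0.0654), and with scaling to the 75th percentile it was -1.14 (adjusted p = 0.0996).

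HK1, the hexokinase of most tissues, did not pass the test. Its probe (chr10:71161158-71161217) read 13.48, 12.92 and 13.49 in mock-treated CEM PA against 12.94, 12.69, 12.80 and 13.33 in CEM RES, which overlapped. The difference was -0.36, with a 95% interval from -0.80 to 0.09 (adjusted p = 0.17).

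Of the phosphofructokinase genes, the liver form PFKL and the muscle form PFKM fell and the platelet form PFKP was not called. PFKM (chr12:48539724-48539783) read 9.67, 9.73 and 9.11 in mock-treated CEM PA against 8.67, 8.60, 8.17 and 8.43 in CEM RES. The difference was -1.04 ± 0.19, 2.05-fold lower, and its adjusted p of 0.000755 was the lowest of the 14 probes in this comparison. PFKL (chr21:45744490-45744749) read 11.25, 11.35 and 11.41 in CEM PA against 10.54, 9.99, 10.26 and 10.85 in CEM RES, a difference of -0.93 ± 0.22, 1.9-fold lower (adjusted p = 0.00452). Neither gene's groups overlapped.

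The PFKP probes differed in sign, and neither was called. A_23_P46928 gave -0.36, with a 95% interval from -0.76 to 0.04 (adjusted p = 0.129), and A_33_P3413962 gave 0.30, from -0.09 to 0.70 (adjusted p = 0.192). Both read overlapping signals in the 2 lines.

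PGAM1 gave different answers by probe. A_32_P45738 read 14.57, 14.54 and 14.94 in mock-treated CEM PA against 15.65, 15.35, 15.79 and 16.04 in CEM RES. All CEM RES arrays were above all CEM PA arrays, by 1.02 ± 0.19 or 2.03-fold (adjusted p = 0.00101). A_33_P3268334, which lists PGAM4 as well, read 13.56, 12.99 and 13.45 against 13.25, 12.94, 13.72 and 13.66. These overlapped, and the difference was 0.06, with a 95% interval from -0.45 to 0.57 (adjusted p = 0.847). Which probe reflects PGAM1 transcript was not tested.

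PKM2 and LDHA, the last steps of the pathway to lactate, lay just outside the threshold. PKM2 read 15.47, 15.02 and 15.08 in mock-treated CEM PA against 15.47, 15.36, 15.85 and 16.28 in CEM RES, with 1 array of each line at 15.47. The difference was 0.55 ± 0.23 (adjusted p = 0.0693). It passed with the 75th percentile scaling (0.74, adjusted p = 0.0122) and without mock CEM RES replicate 2 (0.67, adjusted p = 0.0359). In the other direction, the difference went down to 0.48 under other settings, with limma adjusted p values up to 0.117. With single arrays left out it went down to 0.37, with adjusted p values up to 0.191.

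LDHA read 17.51, 17.18 and 17.33 in mock-treated CEM PA by A_23_P47565 and 17.05, 16.68, 16.91 and 17.09 in CEM RES. The groups did not overlap, but the shift was small, at -0.41 with a 95% interval from -0.77 to -0.04 (unadjusted p = 0.0307, limma adjusted p = 0.0615). The adjusted p was 0.0437, at the same difference, without FK866-treated CEM RES replicate 2. With other single arrays left out it reached 0.19, and the difference ranged from -0.49 to -0.32. Under the settings other than leaving out an array, the difference ranged from -0.44 to -0.08 (limma adjusted p from 0.0535 to 0.78). The probe placed on chromosome 9 read 15.92, 14.51 and 14.82 against 14.22, 14.36, 15.04 and 15.21, with overlap (-0.38, adjusted p = 0.38), and its difference was 0.04 without mock CEM PA replicate 1. Neither probe had a higher mean in mock-treated CEM RES than in mock-treated CEM PA. Whether the chromosome 9 probe reads LDHA transcript was not tested.

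The lines were also compared on the FK866 arrays. ALDOC, PFKM and PFKL were again lower in CEM RES, and PGAM1 A_32_P45738, PFKP A_33_P3413962 and PKM2 were higher. The called probes were 7 of 14, against 36.0% of all probes, with 4 lower and 3 higher, against 18.0% of all probes in each direction. Without the dim HK2 probe, 6 of 13 were called, 3 lower and 3 higher. The groups did not overlap for 9 of the 14, which held for 57.8% of all probes with these group sizes. The median difference was 0.13 over the 14 probes and 0.06 over all probes.

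**Figure D2:**
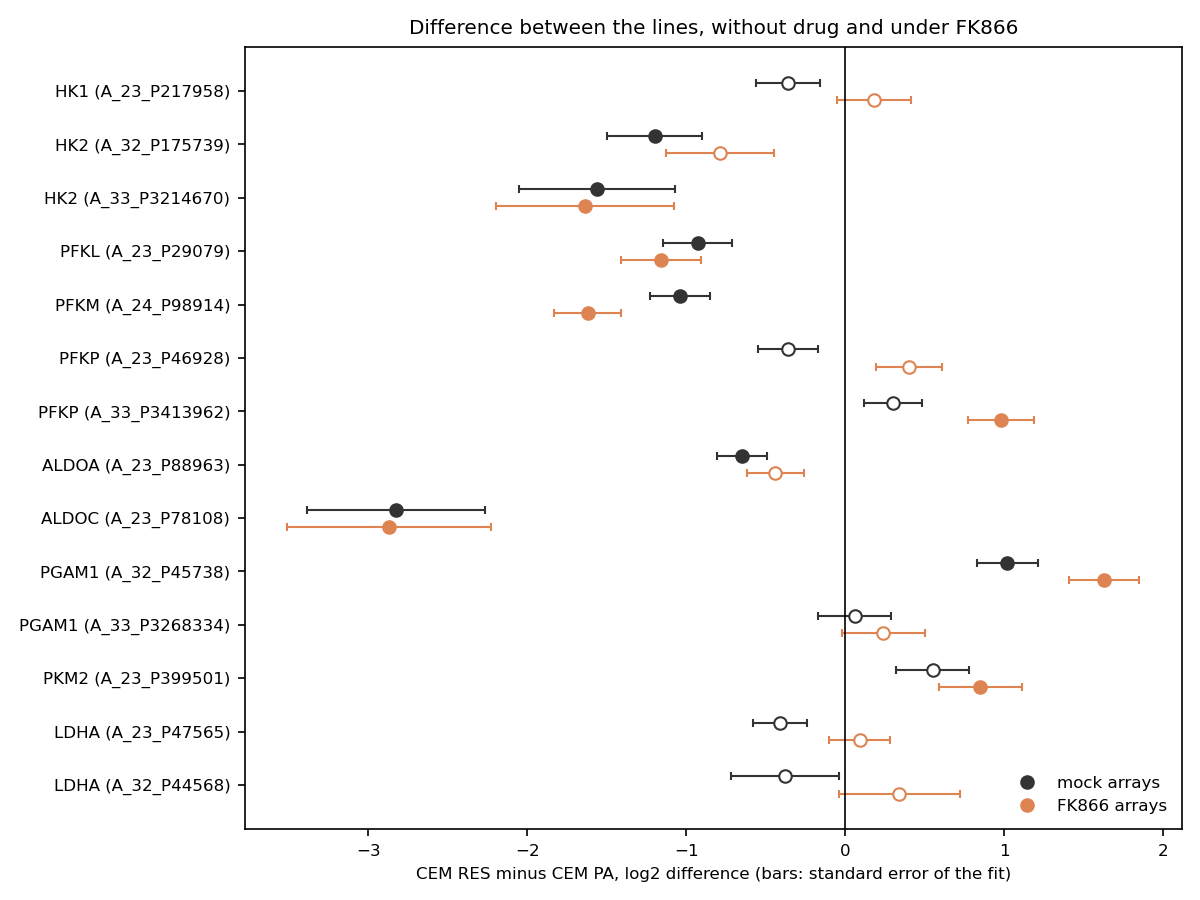
Difference between CEM RES and CEM PA (x axis, log2) for the 14 probes, without drug (dark) and under FK866 (orange), with the standard error of the fit as bars; filled points are called at an adjusted p under 0.05. ALDOC lies near -2.8 in both comparisons, while both LDHA probes lie on either side of 0 with open points.

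ALDOC differed by -2.87 ± 0.64 under FK866 (7.33-fold lower, adjusted p = 0.00452). Its signals were 12.29 and 12.28 in CEM PA against 9.39, 8.14, 9.52 and 10.59 in CEM RES. PFKM read 10.06 and 10.13 in CEM PA against 8.52, 8.47, 8.24 and 8.70 in CEM RES, a difference of -1.62 ± 0.21 (3.06-fold lower, adjusted p = 0.000173). PFKL differed by -1.16 ± 0.25 (2.24-fold lower, adjusted p = 0.00376). These genes kept the direction and the call that they had without drug.

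On the higher side, PGAM1 A_32_P45738 read 13.91 and 14.21 in CEM PA against 15.60, 15.44, 15.75 and 15.96 in CEM RES under FK866, a difference of 1.63 ± 0.22 (3.09-fold, adjusted p = 0.000202). Its other probe differed by 0.24, with a 95% interval from -0.34 to 0.81 (adjusted p = 0.516). PFKP A_33_P3413962 read 12.15 and 12.06 against 13.03, 12.92, 12.89 and 13.50, a difference of 0.98 ± 0.21 (1.98-fold, adjusted p = 0.00332). The brighter PFKP probe pointed the same way without passing (0.40, adjusted p = 0.157).

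PKM2 was higher in CEM RES by 0.85 ± 0.26 under FK866 (1.8-fold, adjusted p = 0.0251). The call was lost without FK866-treated CEM PA replicate 1 (0.92, adjusted p = 0.0943) or replicate 2 (0.78, adjusted p = 0.14), which leave that group with 1 array, and without FK866-treated CEM RES replicate 4 (0.72, adjusted p = 0.0552). Since the probe lists 4 transcripts of the gene, it says nothing of the balance between its M1 and M2 splice forms.

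Under FK866, the brighter HK2 probe did not pass the test. It read 13.30 and 12.67 in CEM PA against 11.72 to 12.73 on the 4 arrays of CEM RES, where the highest CEM RES array exceeded the lower CEM PA array (-0.79 ± 0.34, adjusted p = 0.0883). It passed without FK866-treated CEM RES replicate 4 (-0.97, adjusted p = 0.0442) or mock CEM PA replicate 2 (-0.79, adjusted p = 0.049). With single arrays left out, the difference of this probe ranged from -1.11 to -0.48. Under the other settings it ranged from -0.90 to -0.79 (limma adjusted p from 0.0501 to 0.139). The dim probe, well above background on 3 of 4 CEM RES arrays here, differed by -1.64 ± 0.56 (adjusted p = 0.037). It did not pass with scaling to the 75th percentile (-1.10, adjusted p = 0.17), with the scan session as a random block (adjusted p = 0.0527) or with no filter on dim probes (adjusted p = 0.0648), and it ranged from -1.81 to -1.37 when single arrays were left out. Its call was lost without FK866-treated CEM PA replicate 1 (adjusted p = 0.194) or 2 (adjusted p = 0.103) and without FK866-treated CEM RES replicate 1 (adjusted p = 0.0817) or 3 (adjusted p = 0.0571).

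ALDOA differed by -0.44 ± 0.18 under FK866 (adjusted p = 0.081), with CEM PA at 17.08 and 16.90 and all 4 CEM RES arrays between 16.35 and 16.83. It passed with the normexp correction (-0.46, adjusted p = 0.0366) and without FK866-treated CEM RES replicate 4 (-0.53, adjusted p = 0.0434). In the other direction, the ALDOA difference shrank to -0.33 under other settings, with limma adjusted p values up to 0.243. With single arrays left out it shrank to -0.35. LDHA was close in the 2 lines under FK866, at 17.00 and 16.84 in CEM PA against 17.20, 16.67, 17.01 and 17.15 in CEM RES. The difference was 0.09, with a 95% interval from -0.32 to 0.50 (adjusted p = 0.746). By the chromosome 9 probe it was 0.34, from -0.49 to 1.18 (adjusted p = 0.518). HK1 differed by 0.18 (adjusted p = 0.577).

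Isozyme use was compared within arrays, as the difference between the probes of a pair on the same array, with the brightest kept probe of each gene. Only a change of this difference between groups carries meaning, not its size. For 6 pairs, the line labels were exchanged within each treatment in an exact permutation test (two-sided, 525 arrangements) and the treatment labels within each line (700 arrangements), and the 12 p values were adjusted together. The smallest p values possible were 0.0019 and 0.00143.

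The balance shifted between the lines for 4 of the 6 pairs. ALDOC fell against ALDOA by 2.31 in CEM RES (mean of both treatments; exact p = 0.0019, adjusted p = 0.00762). The within-array difference was -4.78 ± 0.66 (SD, n = 3) in mock-treated CEM PA and -6.96 ± 0.70 (n = 4) in mock-treated CEM RES, and -4.71 ± 0.12 (n = 2) and -7.15 ± 0.81 (n = 4) under FK866. HK2 fell against HK1 by 0.91 (exact p = 0.0019, adjusted p = 0.00762). The arrays read 0.04, -0.32 and 0.24 in mock-treated CEM PA against -0.81, -0.82, -0.88 and -0.93 in mock-treated CEM RES, so that the CEM RES replicates lay within 0.12 of each other.

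PFKP rose against the other phosphofructokinase forms in CEM RES. Against PFKL the mean shift was 1.06 (exact p = 0.0019, adjusted p = 0.00762), and it measured 0.57 without drug and 1.56 under FK866. Against PFKM it was 1.35 (exact p = 0.00381, adjusted p = 0.0114), at 0.68 without drug and 2.01 under FK866. Without drug, 1 CEM PA array (6.27) lay above the lowest CEM RES array (6.22) for PFKP against PFKM. PFKM against PFKL differed by -0.28 (exact p = 0.211, adjusted p = 0.297), and LDHA against LDHB, the heart form of lactate dehydrogenase, by -0.29 (exact p = 0.13, adjusted p = 0.222).

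These arrangements exchange the mock and FK866 arrays of a replicate number apart from each other. With both arrays of a number kept together, 3 CEM PA sets stood against 4 CEM RES sets, and 35 arrangements allowed no p under 0.0286. ALDOC against ALDOA, HK2 against HK1 and PFKP against PFKL and PFKM each reached that p (exact permutation test, two-sided, p = 0.0286, adjusted over the 6 pairs p = 0.0429). PFKM against PFKL gave an exact p of 0.343 and LDHA against LDHB one of 0.314 (adjusted p = 0.343 for both).

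**Figure D3:**
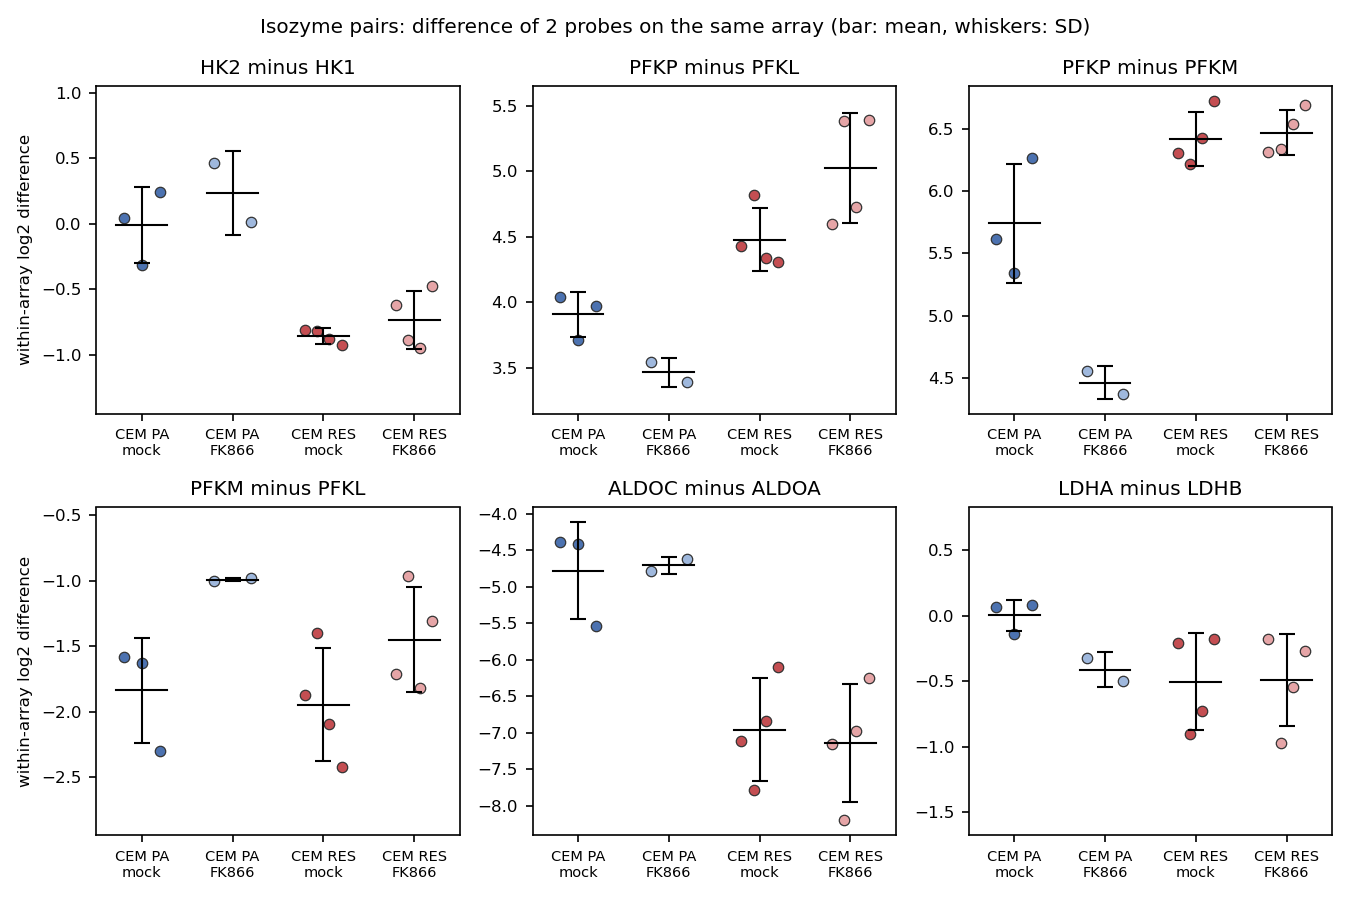
Within-array log2 difference of 6 isozyme pairs (y axis, each panel spanning at least 2.5 units) by group; a point is an array, the bar the group mean and the whiskers the SD. HK2 minus HK1 and ALDOC minus ALDOA are lower on every CEM RES array than on any CEM PA array, and PFKP minus PFKL is higher.

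With FK866, 1 of the 6 pairs shifted over both lines. PFKM rose against PFKL by 0.67 (exact p = 0.0157, adjusted p = 0.0377), at 0.84 in CEM PA and 0.50 in CEM RES. With replicate numbers as pairs, the shift was 0.53 and positive in 6 of 6 pairs, at the smallest p that sign flips of 6 pairs allow (exact p = 0.0312, adjusted p = 0.0938), so it was no longer called. In the same paired test ALDOC against ALDOA was lower with FK866 in 6 of 6 pairs, by -0.23 on average, with the same p values (exact p = 0.0312, adjusted p = 0.0938), whereas without the pairs its shift was -0.06 (adjusted p = 0.873). The PFKM call was also lost without any of 8 single arrays, with adjusted p values of 0.103 without either FK866-treated CEM PA array and 0.0571 without any mock CEM PA array. The others were FK866-treated CEM RES replicates 2 (0.0823) and 4 (0.0754) and mock CEM RES replicate 4 (0.0754). The shift of HK2 against HK1 was 0.18 (adjusted p = 0.297), and 0.58 (adjusted p = 0.0314) when the mean of both HK2 probes was used, which brings in the dim one.

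In CEM PA, most signals read lower with FK866 than with mock, but no difference passed the test. Of the 14 probes, 12 had a difference below 0 (50.4% of all probes did), and 0 were called, against 1.53% of all probes. With the replicate number as a block, 5.35% of all probes were called and still 0 of the 14. At an unadjusted p under 0.05, 6 of 14 passed (42.9%, against 14.4% of all probes), 5 of them lower (6.74% of all probes). The groups did not overlap for 10 of the 14, against 34.8% of all probes with these group sizes of 3 and 2, and 9 of them were lower, against 17.8%. The median difference was -0.38 over the 14 probes and 0.00 over all probes. Probes of 1 array share its RNA, so they are not independent counts of this shift.

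PFKP had the lowest adjusted p values of the 14 in this comparison. A_23_P46928 read 15.29, 15.07 and 15.39 in mock-treated CEM PA and 14.61 and 14.51 with FK866, a difference of -0.69 ± 0.22 (unadjusted p = 0.00877, adjusted p = 0.159). A_33_P3413962 gave -0.60 ± 0.22 (adjusted p = 0.218). The PGAM1 probes gave -0.62 and -0.63 (adjusted p = 0.224 and 0.331) and HK1 -0.55 (adjusted p = 0.333). PFKM went the other way, from 9.67, 9.73 and 9.11 to 10.06 and 10.13 (0.59 ± 0.22, adjusted p = 0.233), and the dim HK2 probe did so too (0.73, adjusted p = 0.645).

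LDHA A_23_P47565 went from 17.51, 17.18 and 17.33 to 17.00 and 16.84 with FK866 in CEM PA. The groups did not overlap, and the difference was -0.42, with a 95% interval from -0.86 to 0.01 (adjusted p = 0.364). Within the first scan session, which held 1 array of each treatment, 13 of the 14 probes were below 0 (median -0.57), and within the second, with 1 FK866 and 2 mock arrays, 11 of 14 were (median -0.42).

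**Figure D4:**
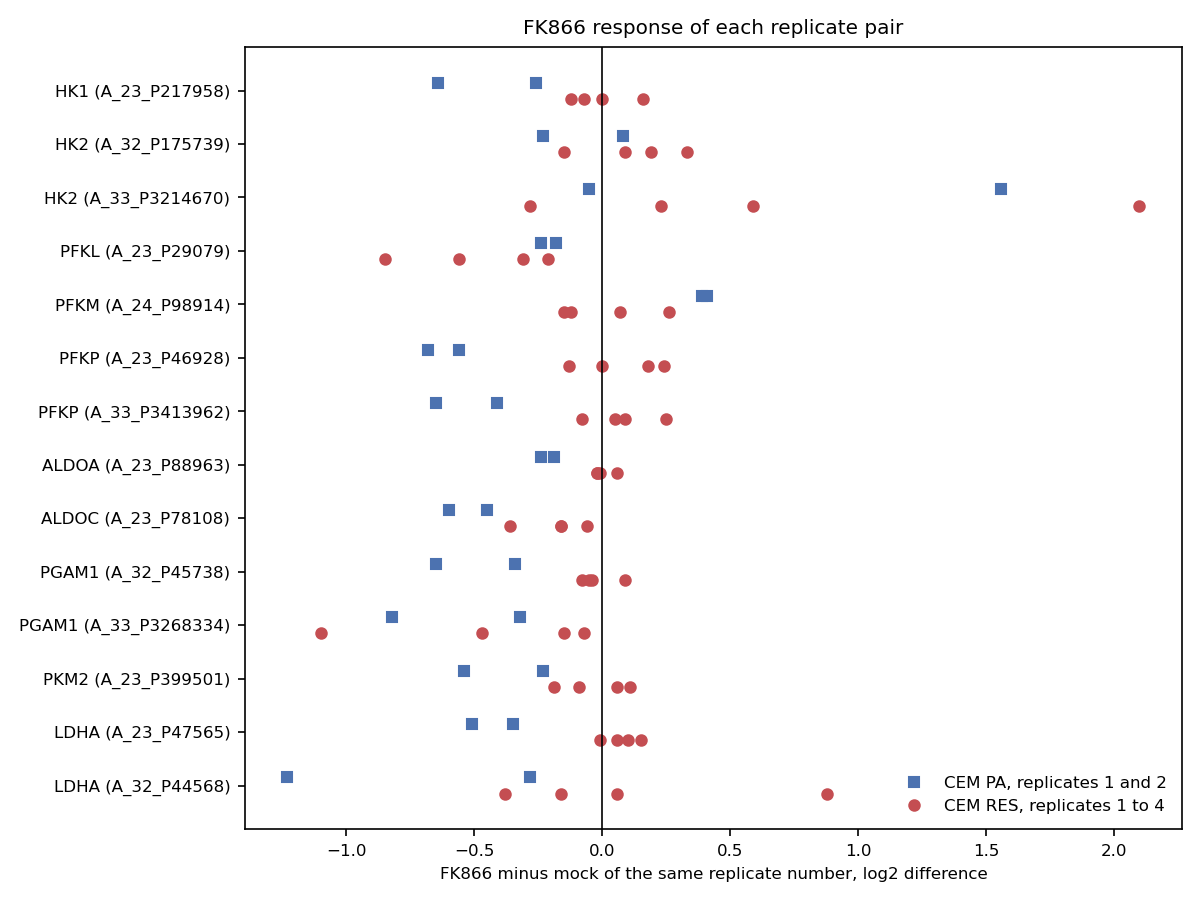
FK866 minus mock signal (x axis, log2) for the arrays of the same replicate number, for each of the 14 probes; squares are the 2 CEM PA pairs and circles the 4 CEM RES pairs. Most squares lie left of 0, except for PFKM and HK2, while the circles lie on both sides of 0 for most probes.

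In CEM RES, 0 of the 14 probes were called by limma for FK866 against mock, and 0 of all 22754 probes were called (0.0%). At an unadjusted p under 0.05, 1 of 14 passed, PFKL, against 5.15% of all probes. PFKL read 10.54, 9.99, 10.26 and 10.85 with mock and 10.24, 9.43, 10.05 and 10.00 with FK866, lower in 4 of 4 replicate pairs but overlapping as groups (-0.48 ± 0.20, unadjusted p = 0.0358, adjusted p = 0.938). The groups did not overlap for 0 of the 14 probes, against 2.9% of all probes. The differences below 0 numbered 6 of 14 (54.4% of all probes), with a median of 0.01, and they varied with the slide: on slide 5, which held FK866 replicates 1 and 3 and mock replicates 3 and 4, 11 of 14 were below 0 (median -0.15), while on slide 6 it was 3 of 14 (median 0.20).

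The responses of the lines differed past the threshold for 0 of the 14 probes by limma, against 0.413% of all probes. At an unadjusted p under 0.05, 2 of 14 passed, against 12.1% of all probes, and both were PFKP. The response of CEM RES minus that of CEM PA was 0.76 ± 0.28 for A_23_P46928 (unadjusted p = 0.0187, adjusted p = 0.306) and 0.68 ± 0.28 for A_33_P3413962 (unadjusted p = 0.0296, adjusted p = 0.352). For LDHA A_23_P47565 it was 0.50, with a 95% interval from -0.05 to 1.04 (adjusted p = 0.457), for PGAM1 A_32_P45738 0.60 (adjusted p = 0.428) and for PFKM -0.58 (adjusted p = 0.431).

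The rest of the pathway was counted from a list of 22 other glycolytic enzymes, of which 18 had a tested probe and HK3, GAPDHS, PGK2 and LDHAL6B had none. Without drug, 7 of their 20 tested probes were called between the lines (35.0%, against 47.6% of all probes), 3 higher and 4 lower in CEM RES. The enolases ENO2 (-1.09 ± 0.33, adjusted p = 0.0164) and ENO3 (-0.96 ± 0.24, adjusted p = 0.00681), which act 1 step before pyruvate kinase, were lower. The ENO2 call was lost without mock CEM PA replicate 1 (-0.98, adjusted p = 0.0593) or 3 (adjusted p = 0.0578). LDHAL6A, a lactate dehydrogenase paralog, was higher, from 7.59, 7.20 and 7.31 in CEM PA to 8.88, 8.01, 8.68 and 8.67 in CEM RES (1.19 ± 0.21, adjusted p = 0.00064). LDHB was not called by either probe (0.10 and 0.22, adjusted p = 0.587 and 0.358).

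Under FK866, 2 of these 20 probes were called between the lines (10.0%, against 36.0% of all probes), ADPGK, which phosphorylates glucose with ADP, being higher and HKDC1, a hexokinase-like gene, lower. Neither was secure. ADPGK by A_23_P14716 (0.45, adjusted p = 0.042) had an adjusted p of 0.0853 with scaling to the 75th percentile and up to 0.263 when an array was left out, in that case FK866-treated CEM PA replicate 1 (0.37). It was also called without drug (0.43, adjusted p = 0.0232). The other ADPGK probe, A_33_P3406927, had the opposite sign in both comparisons, with -0.80 ± 0.32 under FK866, where its groups did not overlap (unadjusted p = 0.0257, limma adjusted p = 0.0656), and -0.65 without drug (adjusted p = 0.0725). HKDC1 (-0.54, adjusted p = 0.0454) was at -0.07 (adjusted p = 0.852) with that scaling and at -0.32 (adjusted p = 0.368) without FK866-treated CEM PA replicate 2. Of the 20 probes, 0 were called for FK866 against mock in either line, with 0 and 3 at an unadjusted p under 0.05 in CEM PA and CEM RES.

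Among 12 genes that regulate the pathway or the splicing of its pyruvate kinase, 11 had a tested probe. Without drug, 9 of their 19 tested probes were called between the lines (47.4%, against 47.6% of all probes), 4 higher and 5 lower. HNRNPA2B1 and HNRNPA1, splicing factors known to act on the pyruvate kinase transcript, moved in opposite directions. HNRNPA2B1 read 12.39, 12.14 and 12.12 in CEM PA against 14.69, 14.72, 15.01 and 14.74 in CEM RES by A_33_P3362891 (2.58 ± 0.15, 5.96-fold, adjusted p = 5.339e-07). A second probe rose by 1.51 (adjusted p = 0.000269), while another, dim one did not pass (-0.13, adjusted p = 0.829). HNRNPA1 was lower by A_33_P3384260 (-1.55 ± 0.17, adjusted p = 3.22e-05) and by A_32_P42197 (-0.55, adjusted p = 0.00872), the latter not with scaling to the 75th percentile (-0.26, adjusted p = 0.142). Its dim probe, A_24_P517901, gave -0.64 (adjusted p = 0.0974).

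MYC, a transcription factor known to drive many glycolytic genes, read 12.14, 12.48 and 10.55 in mock-treated CEM PA against 13.47, 14.25, 13.81 and 13.07 in CEM RES. The difference was 1.93 ± 0.44 (adjusted p = 0.00326), and it was 1.34 (adjusted p = 0.0116) without mock CEM PA replicate 3, the lowest array. On the FK866 arrays MYC was not called, at 12.84 and 12.76 in CEM PA against 13.21, 14.41, 13.91 and 13.44 in CEM RES. A second MYC probe, A_33_P3245163, was too dim to be tested, with mean signals of 3.36 in mock-treated CEM PA and 3.58 in mock-treated CEM RES. PTBP1, another splicing factor of the same transcript, had a mean signal of 3.66 in mock-treated CEM PA, where it was well above background on 2 of 3 arrays, and of 4.47 in CEM RES, where it was so on 4 of 4. The difference was 0.82 (adjusted p = 0.00685), or 0.19 (adjusted p = 0.0934) with the normexp correction.

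The bifunctional enzymes that set the level of fructose 2,6-bisphosphate, the activator of phosphofructokinase, were lower where called. PFKFB2 differed by -0.97 ± 0.18 by A_33_P3300635 (adjusted p = 0.00101) and by -0.26 (adjusted p = 0.168) by its other probe, and PFKFB3 by -1.07 (adjusted p = 0.0183) and -0.93 (adjusted p = 0.0377) by its 2 probes. The PFKFB3 groups overlapped, and without mock CEM PA replicate 3 the differences were -0.79 (adjusted p = 0.0902) and -0.69 (adjusted p = 0.154). The second PFKFB3 probe was also not called without mock CEM PA replicate 1 (-0.79, adjusted p = 0.122), or without mock CEM RES replicates 2 (adjusted p = 0.0893) or 3 (adjusted p = 0.0929), at -0.80 in each case. Nor was it called with the scan session as a random block (adjusted p = 0.0602), with only the groups compared in the fit (adjusted p = 0.0631) or with no filter on dim probes (adjusted p = 0.0633).

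Under FK866, 9 of the 19 regulator probes were called between the lines (47.4%, against 36.0% of all probes), 3 higher and 6 lower. C12orf5, now TIGAR, which lowers fructose 2,6-bisphosphate, was higher in CEM RES by 0.94 ± 0.22 (adjusted p = 0.00532). It was 0.90 and no longer called without FK866-treated CEM PA replicate 1. Without drug C12orf5 did not differ, with a mean of 8.19 in both lines (limma adjusted p = 0.996). Under FK866 the CEM PA arrays read 7.44 and 7.52, and the CEM RES mean was 8.42. HIF1A, the oxygen-regulated activator of glycolytic genes, was lower by 1 of its 2 probes (-0.70 ± 0.23, adjusted p = 0.031), and the other, A_33_P3231277, gave -0.24 (adjusted p = 0.727). The call was lost without FK866-treated CEM PA replicate 1 (-0.44, adjusted p = 0.307) and without FK866-treated CEM RES replicates 1, 2 or 3 (-0.69, -0.64 and -0.69, adjusted p = 0.0534, 0.0681 and 0.0573). HNRNPA1 was lower by all 3 of its probes, by -2.44 (adjusted p = 1.112e-05) for A_33_P3384260, -1.50 (adjusted p = 0.00495) for A_24_P517901 and -0.62 (adjusted p = 0.0133) for A_32_P42197, the last not without FK866-treated CEM PA replicate 1 (-0.53, adjusted p = 0.127). In the FK866 response of CEM PA, 1 of the 19 probes was called (5.26%, against 1.53% of all probes). It was HNRNPA1 A_33_P3384260, which rose from 13.87, 13.69 and 14.16 to 15.10 and 14.94 (1.12 ± 0.21, adjusted p = 0.0225), and the call was lost without either FK866 array (1.04 and 1.20, adjusted p = 0.191 and 0.136) or without mock replicate 1 (1.10, adjusted p = 0.0528) or 2 (1.01, adjusted p = 0.0795). It was also lost with the slide as a block (1.23, adjusted p = 0.319) and with only the groups compared in the fit (adjusted p = 0.127). Of these 19 probes, 0 were called in CEM RES (0.0% of all probes), with 1 at an unadjusted p under 0.05 (5.15% of all probes).

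Across the 13 arrays, the genes whose signal followed HK2 most closely were C2CD2 (Pearson r = 0.974), UBE2R2 (0.969) and SLC14A1 (0.958). Those most like LDHA were KLF12 (0.946), DDB2 (0.944) and GALNT12 (0.942). These are descriptions over arrays that share lines and scan sessions, chosen as the highest of all 17597 genes.

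The promoters are shown for HK2 and ALDOC, lower in CEM RES without drug, and for PGAM1, higher by 1 of its 2 probes. They are windows from RefSeq (GRCh38.p14) that run from 250 bases before to 50 after a transcription start. Capitals mark ACGTG, a form of the core of the hypoxia response element, on either strand. Other forms of the core were not searched. Where CACGTG, the E-box that MYC binds, is present, ACGTG lies inside it on both strands. ACGTG occurred in 21.4% of 34943 such windows and CACGTG in 7.23%. Of the 29 windows of the 10 genes, many of which overlap, 10 held ACGTG (34.5%) and 4 held CACGTG.
HK2, chr2:74834920-74835219, plus strand: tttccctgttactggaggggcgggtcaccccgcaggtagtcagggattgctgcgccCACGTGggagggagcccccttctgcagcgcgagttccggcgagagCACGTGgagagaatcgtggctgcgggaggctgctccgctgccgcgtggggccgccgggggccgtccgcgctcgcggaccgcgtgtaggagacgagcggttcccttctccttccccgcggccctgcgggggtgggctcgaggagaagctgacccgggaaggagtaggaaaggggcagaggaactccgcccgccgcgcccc
ALDOC, chr17:28576846-28577145, minus strand: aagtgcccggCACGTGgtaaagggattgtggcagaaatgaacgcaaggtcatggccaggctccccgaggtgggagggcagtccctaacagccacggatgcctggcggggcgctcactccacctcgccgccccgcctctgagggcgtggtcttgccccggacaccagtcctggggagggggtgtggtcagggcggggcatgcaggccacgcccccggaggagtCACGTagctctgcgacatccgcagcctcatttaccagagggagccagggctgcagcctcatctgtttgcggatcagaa
PGAM1, chr10:97427568-97427867, plus strand: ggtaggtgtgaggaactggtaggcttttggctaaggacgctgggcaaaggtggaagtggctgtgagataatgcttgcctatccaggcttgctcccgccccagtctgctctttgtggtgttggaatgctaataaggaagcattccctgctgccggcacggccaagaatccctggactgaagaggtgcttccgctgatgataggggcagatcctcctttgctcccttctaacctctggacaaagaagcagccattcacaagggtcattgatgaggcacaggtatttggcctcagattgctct
The HK2 window held 2 CACGTG, the ALDOC window 1 CACGTG and 1 further ACGTG, and the PGAM1 window 0 of either. Of the others, ACGTG was in 3 of 3 ALDOA, 1 of 2 LDHA, 2 of 7 PFKM and 1 of 4 PFKP windows, and in 0 of the windows of HK1, PFKL and PKM2. HK2, ALDOC, ALDOA and PFKM, which were lower in CEM RES without drug, therefore each have a window with the motif. So do LDHA and PFKP, which were not called. PFKL, which was lower, has none, and neither do HK1 and PKM2, which were not called. A match says only that the letters are present, and binding was not measured.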

How the data were processed

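Gene expression was measured on 13 Agilent Human GE 4x44K v2 arrays, 1 for each sample. The authors extracted spot intensity with Agilent Feature Extraction (10.7.3.1 in the file headers, 10.7.7.1 in the submitters' processing notes), and the deposited intensity is background-subtracted within each array. The authors also deposited a log2 table, quantile normalized, which served as an alternative. Here the processed intensities of 34127 probes that are not controls were averaged over the spots of a probe, quantile normalized and taken to log2. A probe was kept where all arrays of some group had it well above background (22754 probes). The number of arrays limits the precision.

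Groups were taken from the sample labels. A single limma fit (R 4.3.3, limma 3.58.1) over the 4 groups gave the differences between lines, the FK866 responses and the difference between the responses, with an adjusted p under 0.05 as the threshold. The double threshold was an absolute log2 fold change over 0.75 with an unadjusted p under 0.05. Isozyme pairs were tested with Python 3.11.15 and numpy 2.4.6. The fit was tested on simulated data. The labels call the samples biological replicates. Arrays of the same replicate number deviated together within each line (correlation of their deviations from the group means 0.354 and 0.460 in CEM PA, and 0.199 to 0.473 in CEM RES), so the numbers were also used as a block.

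The members and lists were chosen with earlier results of these data known. Named are every probe of the 10 genes, of the pathway lists up to 5 genes with the largest differences in each direction among those called between the lines without drug and those called in another comparison, and the 3 genes most correlated with HK2 and with LDHA. Of the genes that the rule names, 1 is not reported here. The alternatives were another scaling, background correction, filter on dim probes, 1 probe per gene, the deposited table, fewer groups in the fit, slide, session or replicate number as a block, and leaving out each array. The scan session as a fixed block, the exchange of whole replicate sets between the lines and the member counts without the dim HK2 probe were added after seeing the data.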

Additional observations from a re-analysis of the deposited data

Results flagged for a closer look

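PFKP A_23_P46928 had 1 array apart from the others among the FK866-treated CEM RES arrays. Replicate 4 read 15.40 and the others 14.84, 14.81 and 14.78, so that its gap to the nearest array was 0.906 of the range, above Dixon's critical value of 0.829 for 4 samples. It was the only one of 40 groups of values tested that passed, and chance alone is set to pass about 1 in 20.

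PFKP against PFKL moved in opposite directions with FK866 in the 2 lines. Within replicate numbers, the difference fell by 0.50 and 0.32 in CEM PA and changed by 0.17, 0.56, 0.39 and 1.09 in CEM RES, so every pair of a line had the same sign. The mean changes of the pairs were 0.96 apart, and this difference was not tested. The pattern of signs was looked for in each of the 14 probes and 6 isozyme pairs, and only PFKP against PFKL had it. It is thus a single hit picked from a search.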

How the results depend on the processing

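Of the values of single probes, 609 of 641 kept their direction and their side of the threshold under the settings other than leaving out an array, and 963 of 1027 did when 1 array was left out. None of the values that changed sign was called. The line difference of PGAM1 A_33_P3268334 without drug was -0.01 with the deposited table (0.06 as reported), the FK866 response of the dim HK2 probe in CEM PA was -0.05 with the slide as a block (0.73), and the FK866 shift of ALDOC against ALDOA was 0.00 (-0.06) with scaling to the 75th percentile. When single arrays were left out, the line difference without drug ranged from -0.11 to 0.21 for PGAM1 A_33_P3268334 and from -0.67 to 0.04 for the LDHA probe on chromosome 9, and the FK866 response of CEM PA ranged from -0.64 to 0.02 for HK2 A_32_P175739 and from -0.53 to 0.09 for ALDOC. The FK866 shifts of isozyme pairs then ranged from -0.01 to 0.12 for PFKP against PFKL, from 0.55 to 0.76 for PFKM against PFKL and from -0.25 to 0.12 for ALDOC against ALDOA. With the mean of all kept probes, HK2 against HK1 passed for FK866 (0.58), and with the replicate block PFKM against PFKL no longer did (0.53). The block changed no other call of the 14 probes or the isozyme pairs, also with whole replicate sets exchanged between the lines. The causes were not tested.

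Between the lines without drug, 6 to 8 of the 14 probes were called when an array was left out, against 41.5% to 47.2% of all probes. Under FK866, 5 to 8 of the tested member probes were called in the settings other than leaving out an array. In those settings, 21.3% to 39.3% of all probes were called. For the FK866 responses and their difference, 0 member probes were called in any setting that left at least 2 arrays in each group. Over all probes, the calls for the FK866 response of CEM PA numbered 347, and 580 with normexp, 1218 with the replicate block, 191 with no filter, 90 with 1 probe per gene, 7 with the slide block and 3 with only the groups compared. Calls for the difference of responses numbered 94, and 186 with normexp, 486 with the replicate block, 56 with no filter, 23 with 1 probe per gene and 9 with the slide block. Without FK866-treated CEM PA replicate 1 or 2, they numbered 33 and 32 for the response of CEM PA, 17 and 10 for the difference of responses, and 4189 and 5017, of 8186, for the line difference under FK866. Without mock CEM PA replicate 2 the response of CEM PA gave 113 and the difference of responses 47. The latter also gave 47 and 61 without FK866-treated CEM RES replicates 3 and 4, and 54 and 48 without mock CEM RES replicates 2 and 3. The response of CEM RES gave 3 without mock CEM RES replicate 4, against 0. The 2 FK866-treated CEM PA arrays limit every comparison that uses them.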
